A study of Mus musculus with 11 samples.

Results

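The cytoplasmic ribosomal protein genes encode the proteins that assemble with ribosomal RNA into the small and large subunits of the ribosome. They were taken by name from the deposited counts: Rpl or Rps followed by a number, and Rpsa, leaving out names of pseudogenes (-ps) and the Rps6k kinases. The rule gave 83 of 24515 genes, 50 with large subunit names (Rpl) and 33 with small subunit names (Rps and Rpsa). The stalk proteins Rplp0, Rplp1 and Rplp2, ubiquitin-like fusions such as Fau, and Rack1 belong to the same particle but fall outside the name rule and are given apart. As background, ribosomal proteins are made in nearly equal amounts, and most of their mRNAs start with a cytosine inside a run of pyrimidines, the 5′ terminal oligopyrimidine (TOP) motif, through which mTORC1 signaling and Larp1 set their translation together. Growing and malignant cells make more ribosomes, and several free ribosomal proteins, Rpl5 and Rpl11 foremost, bind Mdm2 and so link ribosome assembly to p53.

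RNA of 6 lung tumors and 5 adjacent normal lungs came from 5 Gprc5a-/- mice, which lack a G protein-coupled receptor induced by retinoic acid and had been given the tobacco nitrosamine NNK for 8 weeks (3 injections of 50 mg per kg a week). The normal lungs therefore carried the same deletion and the same NNK exposure as the tumors, and Gprc5a wild-type or NNK-free lungs were not analysed here. The tumors have the tag ADN (mice m335, m368 and m350) or ADC (mice m335, m372 and m378), which the labels do not spell out. Mouse m335, studied 4 months after NNK, gave 1 tumor of each tag and both share its normal lung; the interval was 6 months for mouse m368 and 7 months for mice m350, m372 and m378. Each library is 1 tissue sample of 1 mouse, per the titles. With the mouse as a block, p-values for tumors against normal lungs rest on the spread of these differences over 5 mice. That spread also holds the gap between the ADN and ADC tumors of mouse m335, which is not a spread over mice. ADN and ADC tumors came from 3 mice each, and p-values of their comparisons take the spread from a fit that holds both tags.

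Libraries held between 19938822 and 46987587 counts, of which Rn45s, a ribosomal RNA precursor, took 7.29% to 19.2%. Levels are in CPM, counts scaled to the same total in each library, with library sizes corrected by TMM, a method that centers the bulk of genes, unless library totals are named. Genes that define lung epithelium (Sftpc, Scgb1a1, Ager and others) summed to 27699 to 46505 CPM in normal lungs and 14585 to 64802 CPM in tumors, so each library held lung tissue. Some libraries carried transcripts of muscle or lymphoid tissue. The skeletal muscle list stood at 778 CPM in the m335 normal lung and at 141 CPM or less in each other library, and the T cell and thymus list stood at 1102 CPM in the m372 normal lung. The heart muscle list stood at 764 CPM in the m372 ADC tumor and at 9.23 to 122 CPM in the other libraries.

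Start sites were read from RefSeq (GRCm38.p6), where 63 of the 83 members matched, with 75 start windows. In the 30 bases from 10 before the start to 20 after it, 24 of 75 windows (32.0%) held an unbroken run of at least 8 pyrimidines, compared with 11.2% of 32851 promoters and 8.0% of 75 windows of mitochondrial ribosomal protein genes. Rpl3 and Rpl21, members that rose in the tumors, had no start window. The following windows are examples of long, middle and short runs. Rpl27a and Rpl15 have long runs, and Rps6 and Rps9 are members with a run of 10 and 9. Rpl4, Rpl36al and Rpl10 were picked as members that rose in the tumors and have runs of 6, 5 and 3. Each is written 5′ to 3′ with its longest run in capitals.
Rpl27a (chr7:109519185-109519214, plus strand): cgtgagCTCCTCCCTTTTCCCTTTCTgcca
Rpl15 (chr14:18270967-18270996, minus strand): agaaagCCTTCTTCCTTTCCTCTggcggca
Rps6 (chr4:86857348-86857377, minus strand): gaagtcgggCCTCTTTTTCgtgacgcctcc
Rps9 (chr7:3704031-3704060, plus strand): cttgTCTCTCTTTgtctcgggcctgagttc
Rpl4 (chr9:64173377-64173406, plus strand): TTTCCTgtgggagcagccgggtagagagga
Rpl36al (chr12:69184048-69184077, minus strand): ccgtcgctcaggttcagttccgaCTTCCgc
Rpl10 (chrX:74270806-74270835, plus strand): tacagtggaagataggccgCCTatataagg
The 7 letters CCGGAAG, the core that ETS family factors such as GABP recognize, occurred on either strand of the 300-base promoter in 34.7% of the members' windows, in 8.86% of all promoters and in 34.7% of those of mitochondrial ribosomal proteins. TATAAA, on either strand of the same 300 bases, was found in 9.33% and 13.6% of the members' and all windows. A match describes these letters only, and none was tested as a site.

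Transcripts of the 83 members took 2.54% to 3.33% of all counts in the normal lungs, 2.60% to 3.30% in the ADN tumors and 3.11% to 5.38% in the ADC tumors. Their summed level was 31599.8, 23806, 25680.4, 26533 and 27890.1 CPM in the normal lungs of mice m335, m368, m350, m372 and m378. It was 35151, 28658 and 30149.6 CPM in the ADN tumors of mice m335, m368 and m350, and 54529.8, 33685 and 39563 CPM in the ADC tumors of mice m335, m372 and m378. The 3 ADC tumors lay above all 5 normal lungs, while 2 of the 3 ADN tumors lay below the m335 normal lung, so those groups overlapped. On library totals the ADC tumors overlapped the normal lungs as well, with the m372 ADC tumor at 31079 CPM and the m335 normal lung at 33286 CPM. Group means were 27102 ± 2918 CPM (SD, n = 5) in normal lungs, 31319 ± 3401 CPM (SD, n = 3) in ADN tumors and 42593 ± 10748 CPM (SD, n = 3) in ADC tumors. Because tissue was sequenced in bulk, more cells with many ribosomes and more ribosomal protein RNA per cell cannot be told apart.

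Divided by the level in its own normal lung, the summed level was 1.11, 1.20 and 1.17 times as high in the ADN tumors (m335, m368 and m350) and 1.73, 1.27 and 1.42 times as high in the ADC tumors (m335, m372 and m378). On library totals these ratios were 0.991, 1.02 and 1.08 for ADN and 1.62, 1.06 and 1.21 for ADC, so in the ADN tumors and in the m372 ADC tumor the sum was near the normal lung, and in the m335 ADN tumor the direction turned. The scaling matters because library totals move the median of all genes in tumors against normal lungs from -0.028 to -0.22 (log2). Changes are therefore also given relative to that median. A change of scaling shifts all genes of a library alike, so these distances are nearly equal under any scaling by construction. No test is given for the sum, since the members were chosen with earlier results of these data known.

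**Figure D1:**
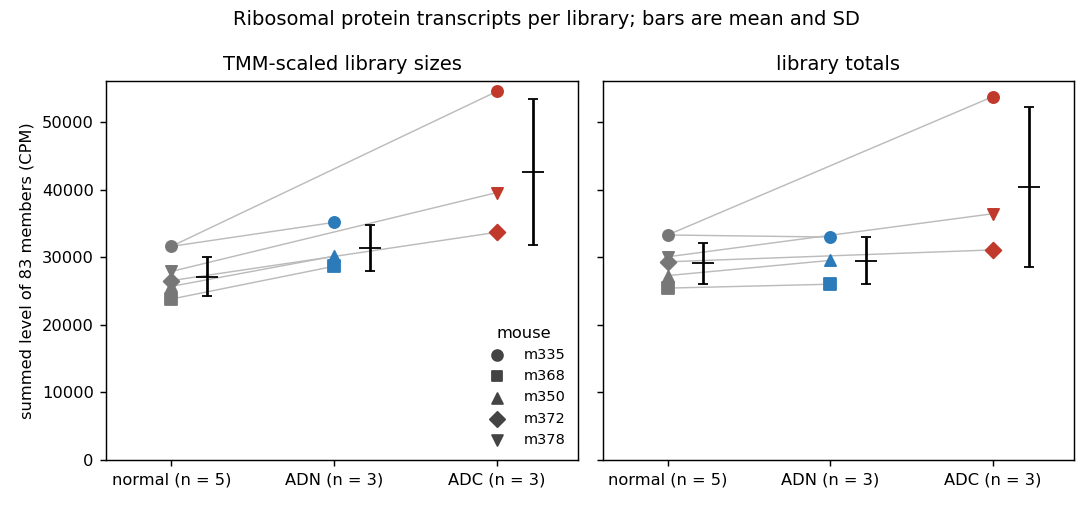
Summed level of the 83 members in each library (CPM, y axis, starting at 0) by group (x axis), on TMM-scaled library sizes (left) and library totals (right). Symbols mark mice, thin lines join a tumor to the normal lung of its mouse, and bars are the mean and SD of a group. The m335 ADC tumor stands above every other library in both panels.

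The members moved unevenly within each tumor. The median log2 ratio to the own normal lung over the 81 members that passed the filter on low counts was 0.27, 0.26 and 0.21 in the ADN tumors of mice m335, m368 and m350, and 0.99, 0.32 and 0.52 in the ADC tumors of mice m335, m372 and m378. All 15175 genes tested had medians from -0.13 to 0.0032 in the same tumors. Relative to them the members' median was higher by 0.30, 0.38 and 0.29 (ADN) and 0.999, 0.332 and 0.515 (ADC), and on library totals by 0.29, 0.36 and 0.28 and 0.99, 0.31 and 0.50. The number of members above their own normal lung was 51, 52 and 51 of 81 in the ADN tumors and 72, 61 and 76 of 81 in the ADC tumors, or 47, 42 and 45 and 68, 48 and 65 on library totals. In each tumor some members therefore lay below the normal lung while the middle of the class lay above it. The m335 ADC tumor had the highest median, and the m378 ADC tumor had the largest number of members higher.

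**Figure D2:**
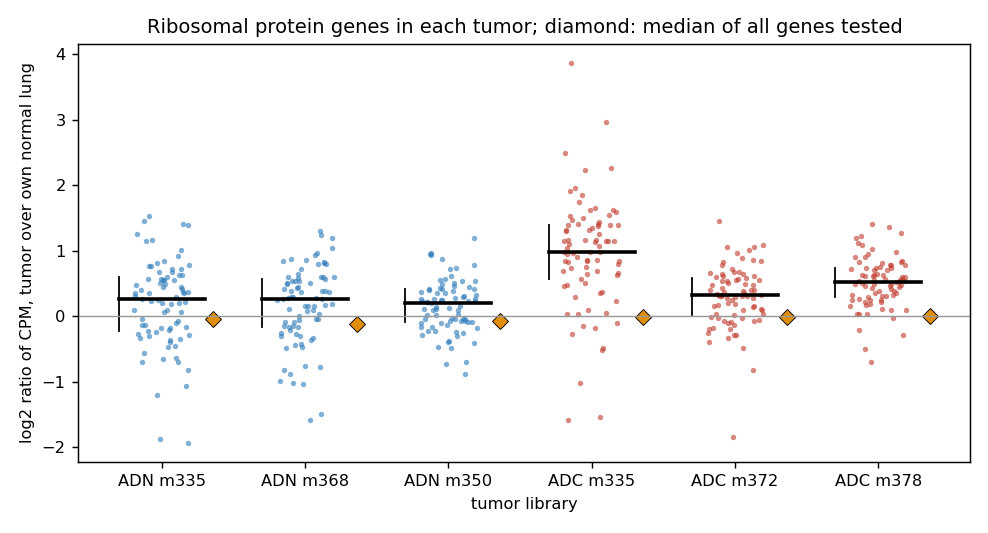
Log2 ratio of each of 81 members (points) to its own normal lung (y axis) in the 6 tumors (x axis), ADN in blue and ADC in red. Thick lines are the members' medians, thin vertical lines their quartiles, and diamonds the median of all 15175 genes; the members' medians run from 0.21 to 0.99.

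In tumors against normal lungs, with the mouse as a block, 5 members were higher and 1 was lower of 81 tested. On library totals 1 was higher (Rpl36al) and 1 lower (Rps4l), where 13.7% of all genes were called. With either library of mouse m372 or m378, or the m335 normal lung, left out, 0 passed (all genes 5.99% to 7.11%). Over all 15175 genes 3.68% were called higher and 7.91% lower, or 11.6% in all, and the members' 5 higher (6.17% of 81) and 1 lower (1.23%) are read against these shares. The members' median log2 fold change was 0.40, with 74 of 81 (91.4%) above 0, while all genes had a median of -0.028 with 47.9% above 0. On library totals the members' median was 0.21 with 62 of 81 above 0. The distance to all genes was 0.43 under both scalings, an agreement that follows from its construction and is no separate support. Most members had a small positive value that did not pass. At an unadjusted p under 0.05, 22 members were higher (27.2%, all genes 10.8%) and 1 was lower (1.23%, all genes 15.5%). Large and small subunit members had medians of 0.42 (48 genes) and 0.35 (33 genes). The 5 higher members all encode large subunit proteins.

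Cell makeup moved with the same groups. All 9 erythrocyte genes fell in tumors, from a summed 7386 to 31697 CPM in normal lungs to 1212 to 6026 CPM. Of 8 endothelial genes 7 fell (8 on library totals), from 2585 to 4177 CPM down to 517 to 936 CPM. Of 10 genes of alveolar type 2 cells 4 rose (2 on library totals), and their sums were 43529 to 58869.8 CPM in normal tissue and 38124 to 139638 CPM in tumors. Of 11 skeletal muscle genes tested 9 fell, with a list median of -5.10 and sums of 12.1 to 778 CPM in normal lungs and 3.43 to 9.07 CPM in tumors. Of 8 fibroblast genes 3 fell, with a median of -0.77. The part of these cells in the members' levels was not tested.

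Rpl3 (chromosome 15, 80077781 to 80083406, GRCm38), whose protein lies near the catalytic center of the large subunit, stood at 383, 337, 357, 341 and 354 CPM in the normal lungs (mice m335, m368, m350, m372 and m378, the order used throughout). It stood at 659.6, 511 and 455 CPM in the ADN tumors (m335, m368 and m350) and at 858, 666 and 599.9 CPM in the ADC tumors (m335, m372 and m378). Each tumor lay above each normal lung, and the normal lungs were close together, at 354 ± 17.9 CPM (SD, n = 5). The log2 fold change was 0.75 ± 0.18 (SE, edgeR adjusted p = 0.0316), the call was lost on library totals (adjusted p = 0.0797), and over 24 alternatives, 9 of which kept it, that p reached 0.121.

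Rpl4 (chromosome 9, 64173387 to 64178562), a protein of the wall of the peptide exit tunnel, was at 536, 727, 826, 670.4 and 803 CPM in normal lungs, 1273, 1036 and 1097 CPM in ADN tumors and 1129.6, 1222 and 1386 CPM in ADC tumors. The lowest normal lung was that of mouse m335, and no tumor overlapped a normal lung. Its log2 fold change was 0.77 ± 0.19 (SE, edgeR adjusted p = 0.0328). The call was lost on library totals (edgeR adjusted p = 0.0786) and kept in 11 of 24 alternatives, with p up to 0.124. ADN and ADC tumors had nearly the same mean, 1136 and 1246 CPM.

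Rpl10 (chromosome X, 74270816 to 74273135), which completes the late large subunit at the site where the subunits join, was at 726, 562, 454, 522 and 544 CPM in normal lungs, 1064, 738 and 758 CPM in ADN tumors and 1175, 1083 and 1154 CPM in ADC tumors. The m335 normal lung was the highest of its group and the m368 ADN tumor the lowest tumor, without overlap. The log2 fold change was 0.77 ± 0.18 (SE, edgeR adjusted p = 0.0274), which on library totals was lost (adjusted p = 0.0642). Of 24 alternatives 13 kept the call, with p up to 0.130. Rpl21 (chromosome 5, 146832890 to 146837032), a large subunit protein, stood at 311, 321, 278, 279.7 and 363 CPM in normal lungs, 699.5, 380.4 and 509 CPM in ADN tumors and 443, 563 and 603 CPM in ADC tumors. Here the m335 ADN tumor was highest and the ADC tumor of that mouse the lowest of the ADC group, a pattern unlike that of the summed level. The log2 fold change of Rpl21 was 0.75 ± 0.20 (SE, edgeR adjusted p = 0.0439), also lost on library totals (adjusted p = 0.0980), and 11 of 24 alternatives kept it, with p up to 0.144.

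Rpl36al (chromosome 12, 69182734 to 69184067), a 2-exon gene on an autosome whose protein is nearly that of the X-linked Rpl36a, rose most of the called members. It went from 113, 128, 136, 142 and 136 CPM in normal lungs to 215, 249.6 and 174 CPM in ADN and 344, 266 and 312 CPM in ADC tumors. All tumors lay above all normal lungs, with a log2 fold change of 0.96 ± 0.21 (SE, edgeR adjusted p = 0.0205). Rpl36a itself was at 40.5 to 71.2 CPM in normal lungs and 51.3 to 126 CPM in tumors. Reads of such similar genes may be split between them by the authors' software. Rpl36al took 61.4% to 77.1% of their joint counts in normal tissue, and in tumors 70.8% to 82.6%. Counted as 1 gene, an alternative chosen after seeing the data, the pair had a log2 fold change of 0.85 ± 0.22 (SE, edgeR adjusted p = 0.0414), and over the 23 alternatives for Rpl36al alone that p ran from 7.70e-05 to 0.0928.

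Rps4l was the exception. RefSeq lists it as a transcribed pseudogene of Rps4x, with 1 exon (chromosome 6, 148354656 to 148355596, plus strand). It stood at 42.3, 28.4, 32.3, 28.5 and 35.2 CPM in normal lungs, 18.0, 25.5 and 17.2 CPM in ADN tumors and 14.2, 7.59 and 21.4 CPM in ADC tumors, from 329 to 1493 counts a library. Each tumor lay below each normal lung, and the log2 fold change was -1.04 ± 0.25 (SE, edgeR adjusted p = 0.0271), a call kept on library totals and in 11 of 23 alternatives, with p up to 0.113. The gene lies inside the span of Tmtc1, which is on the opposite strand, and the strand setting of the counting is not given in the sources used here. Tmtc1, which encodes a membrane protein of the endoplasmic reticulum, went from 43.4, 49.8, 59.3, 35.5 and 42.7 CPM in normal lungs to 13.1, 9.56 and 22.8 CPM in ADN and 3.72, 18.9 and 10.9 CPM in ADC tumors. Its log2 fold change was -1.84 ± 0.35 (SE, edgeR adjusted p = 0.0111), and whether reads of 1 gene were counted for the other was not tested. The parent Rps4x, the X-linked small subunit protein S4, had a log2 fold change of 0.35 ± 0.21 (SE, edgeR adjusted p = 0.333), with 469 to 556 CPM in normal lungs and 479 to 962 CPM in tumors.

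**Figure D3:**
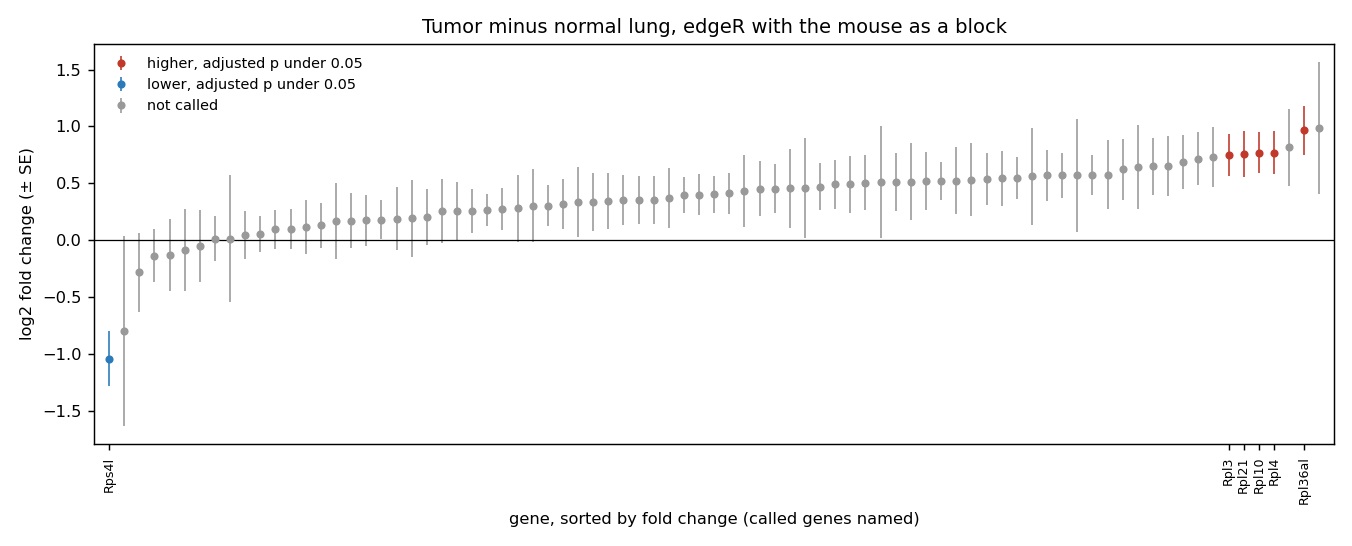
Log2 fold change with its SE (y axis) of the 81 members tested (x axis, sorted, with the called genes named), tumors minus normal lungs, from edgeR with the mouse as a block. The 5 genes higher are in red, Rps4l, lower at -1.04, in blue, and 74 of the 81 points lie above 0.

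Counted by level alone, 10 of 81 members (12.3%) were higher in every tumor than in every normal lung, compared with 3.55% of all genes: Rpl3, Rpl4, Rpl6, Rpl10, Rpl10a, Rpl21, Rpl32, Rpl36al, Rps9 and Rps25. On library totals 4 of them kept that separation (Rpl3, Rpl4, Rpl36al and Rps9), against 1.83% of all genes. Rpl6, Rpl32, Rps9 and Rps25 were named after their values were seen, and they had edgeR adjusted p-values of 0.0823, 0.117, 0.0709 and 0.219 with log2 fold changes of 0.72, 0.73, 0.58 and 0.45. Rps9, a protein of the decoding side of the small subunit, stood at 565 to 664 CPM in normal lungs and 816 to 1178 CPM in tumors. Rps4l was the 1 member lower in every tumor than in every normal lung (7.91% of all genes). Against the own normal lung, 21 members (25.9%) were higher in 6 of 6 tumors, compared with 8.38% of all genes, and Rps4l was lower in 6 of 6 (13.8% of all genes).

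ADN and ADC tumors were compared with the same 5 normal lungs, so these comparisons share their controls. In ADN tumors edgeR called 0 of 81 members, where 2.68% of all genes were higher and 4.84% lower (7.53% in all). At an unadjusted p under 0.05, 5 members were higher (6.17%, all genes 8.99%) and 2 lower (2.47%, all genes 15.0%). DESeq2 called 5 members where it called 19.3% of all genes, and the fit without the mouse block called 3 (Rpl4, Rpl21 and Rpl36al) and 11.7% of all genes, so the members lay below the share of all genes in each. The members' median was 0.12 with 54 of 81 above 0, but on library totals it was -0.075 with 35 above 0. Relative to all genes it was 0.20 higher under both scalings, again nearly equal by construction. Rpl4 (0.73 ± 0.24) and Rpl21 (0.84 ± 0.26) had values close to those of all tumors, with edgeR adjusted p of 0.115 and 0.0923.

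In ADC tumors 3 members were higher and 1 lower, where 1.01% of all genes were higher and 3.98% lower (4.99% in all), beside 4.94% of the members. The higher members were Rpl36al at 1.22 ± 0.24 (SE, edgeR adjusted p = 0.0263), Rpl10a at 1.04 ± 0.24 (SE, edgeR adjusted p = 0.0465) and Rpl3 at 0.94 ± 0.22 (SE, edgeR adjusted p = 0.0499), and the lower was Rps4l at -1.33 ± 0.30 (SE, edgeR adjusted p = 0.0488). Only Rpl36al and Rps4l kept their calls on library totals and without the filter on low counts. Over all alternatives Rpl36al passed in 10 of 23, Rps4l in 8 of 23, Rpl10a in 6 of 24 and Rpl3 in 5 of 24, with edgeR adjusted p up to 0.162, 0.208, 0.226 and 0.227. Rpl10a (chromosome 17, 28328471 to 28331033), which forms part of the L1 stalk where spent transfer RNA leaves, stood at 231, 174, 224, 210.4 and 225 CPM in normal lungs, 298, 264 and 249.9 CPM in ADN tumors and 613, 332 and 435 CPM in ADC tumors. Its ADN tumors were a little above the normal lungs and its ADC tumors higher still, with the m335 ADC tumor highest. The members' median was 0.64 (all genes 0.0010) with 77 of 81 above 0, and 0.45 with 72 above 0 on library totals. At an unadjusted p under 0.05, 40 members were higher (49.4%, all genes 7.49%) and 1 lower (1.23%, all genes 11.1%). The 3 ADC tumors were above all 5 normal lungs in 40 of 81 members (49.4%, all genes 8.9%), and on library totals in 24 (29.6%, all genes 4.16%).

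The difference between ADC and ADN tumors was tested in the same fit, in which mouse m335 alone has both tags and the other tumors are linked through their normal lungs. By edgeR 0 of 15175 genes passed, members included (0% called), with 642 genes higher and 350 lower at an unadjusted p under 0.05. At that level 13 members were higher in ADC (16.0%, all genes 4.23%) and 0 lower, and DESeq2 also called 0 members (over all genes, 54 higher and 71 lower). The members' median was 0.47 with 74 of 81 above 0, and the median over all genes was 0.044. Standard errors were wide, with a median of 0.35 over the members, so a difference of the size of that median was of the order of its error, and similar levels in ADC and ADN tumors are not shown either. Within mouse m335 the summed level was 35151 CPM in the ADN and 54529.8 CPM in the ADC tumor.

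**Figure D4:**
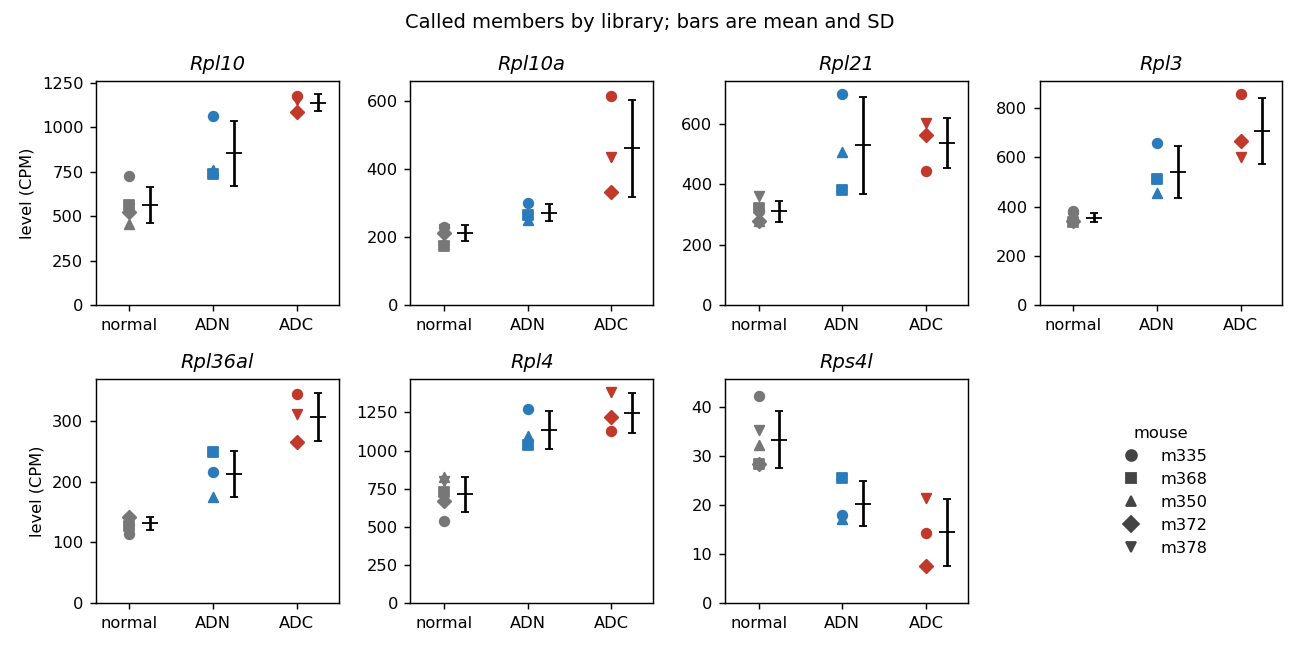
Level in CPM (y axes, each starting at 0) of the 7 members called in any comparison, by group (x axis); symbols mark mice, and bars are the mean and SD. Rps4l falls from 33.3 CPM in normal lungs to 14.4 CPM in ADC tumors, and the other 6 genes are higher in all tumors than in all normal lungs.

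Other members known for roles beyond the ribosome are given next, and those named here and in the following paragraph were not called over all tumors. That statement leaves out the called members described above, Rpl10 among them. Rpl5 and Rpl11, which form a particle with 5S ribosomal RNA that can bind Mdm2, had unlike values. Rpl5 was at 351 ± 42.4 CPM (SD, n = 5) in normal lungs and 467 ± 94.8 CPM (SD, n = 6) in tumors, with a log2 fold change of 0.40 ± 0.18 (SE, edgeR adjusted p = 0.203). Rpl11 was at 320.4 to 393 CPM in normal lungs and 284 to 449 CPM in tumors, at 0.051 ± 0.16 (SE, edgeR adjusted p = 0.879), and on library totals at -0.14. Rpl23, another Mdm2 binder, was at 143, 158, 229, 152 and 134 CPM in normal lungs, 229, 285 and 174 CPM in ADN tumors and 554, 232 and 345 CPM in ADC tumors. Its ADC tumors lay above all normal lungs, the m335 ADC tumor farthest, and the m350 ADN tumor lay below the normal lung of its mouse. The log2 fold change of Rpl23 was 0.82 ± 0.34 (SE, edgeR adjusted p = 0.167).

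Rps6, the S6 kinase substrate, was at 475 to 589 CPM in normal lungs and 483 to 1168 CPM in tumors, with 0.49 ± 0.22 (SE, edgeR adjusted p = 0.193). Rps19 and Rps24, both mutated in Diamond-Blackfan anemia, had log2 fold changes of 0.47 ± 0.21 (SE, edgeR adjusted p = 0.187) and 0.54 ± 0.24 (SE, edgeR adjusted p = 0.196). Rps3, which also takes part in DNA repair and NF-kB signaling, was at 0.35 ± 0.21 (SE, edgeR adjusted p = 0.330), and Rpsa, also known as a laminin receptor, at 0.27 ± 0.19 (SE, edgeR adjusted p = 0.404). Rpl13a, which in myeloid cells can leave the ribosome and silence inflammatory mRNAs, was at 0.37 ± 0.27 (SE, edgeR adjusted p = 0.430). Rpl41, a short peptide of the large subunit, was at 479 to 745 CPM in normal lungs and at 654, 707 and 647 CPM in ADN and 1969.6, 598 and 1021 CPM in ADC tumors, with 0.43 ± 0.31 (SE, edgeR adjusted p = 0.437). The ADN tumors were within the normal range for Rpl41, and the m335 ADC tumor was far above the rest. All these log2 fold changes were above 0. The SD of the log2 level over the 6 tumors ran from 0.33 for Rpsa to 0.66 for Rpl41, beside a median of 0.49 over all members tested.

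The 3 members with the highest mean CPM had smaller values than the middle of the class. Rps14, a small subunit protein of the platform, whose loss underlies the anemia of a myelodysplastic syndrome, stood at 1611, 813, 961, 1576 and 1391 CPM in normal lungs, 1091, 1931 and 1585 CPM in ADN and 1496, 1397 and 1138 CPM in ADC tumors, with a log2 fold change of 0.19 ± 0.28 (SE, edgeR adjusted p = 0.728). The groups overlapped, the m368 ADN tumor was the highest library and the normal lung of that mouse the lowest, and without either the value turned to -0.046 or -0.044. Rpl8, at the peptidyl transferase center, had 0.042 ± 0.21 (SE, edgeR adjusted p = 0.928), and Rps15, near the decoding site, 0.18 ± 0.17 (SE, edgeR adjusted p = 0.568); on library totals their values turned to -0.15 and -0.0094. Per transcript length, Rps15 and Rps14 also led, with 2398 and 2283 CPM per kilobase of transcript, followed by Rpl41 with 1812.

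Paralogs with narrow tissue use stayed low. Rpl10l, a testis gene, had at most 1 count in a library, and Rpl39l, also known from testis, 0 to 80 counts, so both fell below the filter and are given no fold change. Rpl39l had 60 counts in the normal lung and 0 in the m350 ADN tumor, and 80 counts in the ADN tumor and 1 in the m368 normal lung, and stayed at 12 counts or less in the rest. Rpl3l, the paralog of Rpl3 in heart and skeletal muscle, had 86 counts in the m335 normal lung, which held the skeletal muscle transcripts, and 4 to 40 in the others. Its log2 fold change was -0.80 ± 0.83 (SE, edgeR adjusted p = 0.605), and 0.031 without that normal lung. Rpl39, the general gene, was at 0.53 ± 0.32 (SE, edgeR adjusted p = 0.339).

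Other pairs were both expressed. Rpl22 was at 265 to 346 CPM in normal lungs and 312 to 479 CPM in tumors , with a log2 fold change of 0.30 ± 0.18 (SE, edgeR adjusted p = 0.321), and its paralog Rpl22l1, which Rpl22 protein can repress, at 37.5 to 73.3 CPM in normal lungs and 41.4 to 99.0 CPM in tumors, with 0.33 ± 0.31 (SE, edgeR adjusted p = 0.551). Rps27l, a p53-induced paralog of Rps27, stood at 47.5, 73.3, 50.4, 72.3 and 64.8 CPM in normal lungs, 73.5, 68.6 and 97.2 CPM in ADN tumors and 151, 103 and 93.1 CPM in ADC tumors. Its ADC tumors were above all normal lungs and its ADN tumors overlapped them, with a log2 fold change of 0.65 ± 0.26 (SE, edgeR adjusted p = 0.154). Rps27 was at -0.087 ± 0.36 (SE, edgeR adjusted p = 0.912). Rpl7l1, a nucleolar relative of Rpl7, was at 0.27 ± 0.14 (SE, edgeR adjusted p = 0.270), and Rpl26, which can raise p53 translation, at 0.52 ± 0.26 (SE, edgeR adjusted p = 0.241).

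Some members have copies, by name pseudogenes or retrogenes, among the same deposited counts. The sequences of copy and parent were not compared here. Rpl34 was at 3.89 to 8.26 CPM in normal lungs, and the pseudogene Rpl34-ps1 took 84.8% to 97.4% of their joint counts. Rps27rt, a retrogene, took 52.4% to 53.2% of the counts of Rps27 and itself in every library, and Rpl37rt 49.5% to 69.1% of those of Rpl37 and itself. Rpl14-ps1 held 39.6% to 52.8% and Rpl31-ps12 33.0% to 60.6% with their parents. Rps19-ps3 held 10.1% to 37.1% with Rps19, and Rps15a-ps6 23.1% to 43.7% with Rps15a. Reads of a copy and its parent may be split between them, so levels of these members are uncertain. In addition 36 members overlap another gene of the table, 21 of them a small nucleolar RNA gene hosted in an intron, as in Rpl3, Rpl4 and Rpl10.

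The spread over libraries was larger in tumors than in normal lungs, and 1 tumor held much of it. The median SD of a member's log2 level was 0.27 over normal lungs and 0.49 over tumors, or 0.33 without the m335 ADC tumor. That tumor had the highest level of 61 of 81 members. For all genes the median SDs were 0.29, 0.48 and 0.40. It also differed in other lists: the T cell and thymus list summed to 583 CPM there and to 39.3 to 77.3 CPM in the other tumors, and the alveolar type 2 list to 38124 CPM against 111133 to 139638 CPM. Cd74, a class II chaperone of B cells and other antigen-presenting cells, stood at 15650.1 CPM there and at most at 7599 CPM in the other tumors. The proliferation list summed to 435 CPM there and to 138 to 261 CPM in the other tumors. The part of these genes and their cells in the members' levels was not tested either. In the m335 ADC tumor all genes with transcripts under 600 bases had a median log2 ratio of 0.66, and other genes -0.023. In the other tumors those short genes had medians from -0.23 to 0.20. Members under 600 bases stood at 1.15 in the m335 ADC tumor and other members at 0.98. The median transcript length was 814.5 bases for members and 2832.5 bases for all genes. Whether length had a part was not tested. Among normal lungs, Rpl12, Rps18 and Rps2 spanned 5.65-fold, 5.47-fold and 4.23-fold between the lowest and the highest library. They are named for that spread, after their values were seen.

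Without the m335 ADC tumor, 15 members (18.5%) were called in tumors against normal lungs (14 higher, 1 lower), where 22.4% of all genes were called. Most calls over all genes were decreases, with 1447 higher and 1930 lower of 15106 genes. The members' median was 0.30. Without that mouse's normal lung 0 were called (all genes 6.73%), with a median of 0.32. Leaving out either library of mouse m372 or m378 also gave 0 calls (all genes 5.99% to 7.11%). A library of mouse m350 left out gave 1 call, Rpl36al (all genes 6.98% and 7.30%). Without the m335 ADN tumor there were 2 (Rpl10 and Rpl36al, all genes 9.09%). Without a library of mouse m368 there were 5 or 6 (all genes 9.64% and 10.1%). The members' medians in these fits stayed between 0.30 and 0.43. In ADC against normal, leaving out any library other than those of mouse m368 left 0 or 1 call (all genes 0.425% to 7.06%). The members' medians ran from 0.42 to 0.79, and without the m335 ADC tumor the call was Rpl10. Without the mouse block 11 members (13.6%) were called in tumors, where 14.8% of all genes were, and 24 (29.6%) in ADC tumors, where 10.2% of all genes were. In tumors these were 10 members higher and 1 lower, beside 904 genes higher and 1338 lower of 15175.

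Of 14 members with several deposited transcripts, most kept 1 dominant form. Among the exceptions, the share of Rpl34 NM_001005859 ran from 9.12% to 74.1% in normal lungs and from 9.09% to 53.3% in tumors. Rpl35a divided its counts into 47.9% and 51.2% for its main forms in the m368 ADN tumor. Rpl3l, with 4 to 86 counts a library, also changed its main form between libraries. Rps24, whose transcripts differ in short exons near the 3′ end, gave 94.2 ± 1.80% of its counts (SD, n = 5) to NM_207634 in normal lungs and 97.3 ± 2.53% (SD, n = 6) in tumors, with overlapping ranges. Rpl22 divided its counts mainly over 3 of 5 forms, and NM_001277113 varied between libraries, from 49.9% to 70.9% in normal tissue and from 44.1% to 68.7% in tumors. For Rps27l the share of the minor form NM_001311101 was 0.292% to 0.844% in normal tissue and 0.897% to 2.20% in tumors, without overlap. The gene had 1593 to 4453 counts a library, so this form rests on few counts. How many forms of the other members separated in this way was not counted. These splits are estimates of the authors' software and were not tested.

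The rest of the translation apparatus was read from gene lists in the same fit. Of 6 measured stalk and fusion genes, 1 rose in tumors, Rplp0, at 0.69 ± 0.18 (edgeR adjusted p = 0.0428), with a list median of 0.42, and on library totals 0 did, with a median of 0.23. It stood at 1632, 1009, 1222, 1274 and 1552 CPM in normal lungs, 2207, 1447 and 1813 CPM in ADN and 2571, 2529 and 2809 CPM in ADC tumors; the m368 ADN tumor overlapped the normal lungs. Of 14 other genes with TOP mRNAs, mainly translation factors, 5 rose and 0 fell, with a median of 0.71 and 14 of 14 above 0, or 2 rising (Eif4b and Tpt1) and 13 above 0 on library totals. They were Npm1, a nucleolar chaperone (1.09 ± 0.27), Eif4b, an initiation factor (1.04 ± 0.17), Tpt1, a growth-related TOP gene (0.96 ± 0.19), and the elongation factors Eef1b2 (0.92 ± 0.22) and Eef1a1 (0.84 ± 0.23). For Tpt1 the normal lungs lay at 698 to 795 CPM and the tumors at 1246 to 1794 CPM, without overlap. Relative to all genes the median was 0.74 higher for these factors and 0.43 higher for the members; the difference between them was not tested.

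Of 40 ribosome biogenesis genes 2 rose and 0 fell, with a median of 0.24, while on library totals 0 rose, 1 fell (Sbds) and the median was 0.045. The genes that rose were Polr1c, a subunit of RNA polymerases I and III (0.83 ± 0.20), and Nhp2, a core protein of snoRNPs that guide pseudouridylation (0.61 ± 0.13). Of 20 regulators of ribosomal protein synthesis, among them Myc, Mtor and Larp1, edgeR called 0, with 1 higher and 1 lower at an unadjusted p under 0.05 and a median of 0.061, or -0.13 on library totals. DESeq2 called 0 of them as well, and on library totals 1 was lower (Rps6kb2, an S6 kinase). Of 78 mitochondrial ribosomal protein genes 1 rose, Mrpl32 (1.10 ± 0.17), with a median of 0.26 and 68 above 0, or 0.074 and 51 above 0 on library totals. Among 15 p53 targets Zmat3 (1.41 ± 0.18), Eda2r (1.62 ± 0.32) and Ccng1 (1.17 ± 0.18) rose and Fas (-1.37 ± 0.36) fell, on library totals too. Of 17 proliferation genes 0 passed by edgeR, 2 were higher and 0 lower at an unadjusted p under 0.05, and DESeq2 called 2 higher (Cdk1 and Tyms). Their sum was 440 CPM in the m372 normal lung, which held the thymus transcripts, and 149 to 172 CPM in the other normal lungs. Without that library the list median went from 0.44 to 0.81, with 17 of 17 above 0 and Cdk1 higher, and without the m335 normal lung it was 0.031.

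Genes whose level followed the summed members most closely were Tpi1, a glycolytic enzyme (Pearson r = 0.99), Ssr4, a subunit of the translocon-associated complex (0.98), Rnf34, a ubiquitin ligase (0.98), Arpc5l, of the actin-nucleating Arp2/3 complex (0.98), and Ufm1, a ubiquitin-like modifier (0.98). These were the 5 highest of 11392 genes (mean level 5 CPM or more), over 11 libraries after removing mouse means, and the points share library and mouse. Tpi1 stood at 146, 124, 124, 132 and 111 CPM in normal lungs, 202, 194 and 152 CPM in ADN and 470.4, 205 and 199 CPM in ADC tumors, with the m335 ADC tumor far above the rest. Among the members, the same measure against the sum ran from -0.78 for Rps4l, -0.30 for Rpl3l and -0.28 for Rpl9 to 0.99 for Rpl10a. Members with a pyrimidine run of at least 8 at the start had a median log2 fold change of 0.47 (24 genes) and the others 0.35 (37 genes), which is a description.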

How the data were processed

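The deposited table holds the authors' expected counts of reads per RefSeq transcript for 11 libraries, estimated by software before deposit, not normalized and not always whole. Per the labels, poly-A RNA with an RNA integrity number of at least 7 was sequenced on an Ion Proton. The submitters' processing notes list STAR 2.4.1d, Bowtie2 2.1.0, Partek and the build mm10, without saying what each did or which annotation and strand setting were used.

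The 36285 transcripts were summed to 24515 gene symbols and rounded. Library totals were 19938822 to 46987587 counts. No replicate libraries were identical. filterByExpr in edgeR 4.0.16 (R 4.3.3), on tumor against normal, kept 15175 genes. The quasi-likelihood test used TMM scaling and the mouse as a block, and p-values were adjusted by Benjamini-Hochberg across the 15175 genes (called: adjusted p under 0.05). The code was tested on simulated data. DESeq2 1.42.0, other scalings, no filter, no block, left-out libraries and mice, and copies counted with their parent gene were alternatives, the last chosen after seeing the data.

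Replicate numbers are mouse identities. The deviations of a tumor and of the normal lung of its mouse correlated at 0.30, 0.11 and 0.024 (ADN m335, m368 and m350) and -0.070, -0.011 and 0.25 (ADC m335, m372 and m378), and the pairing rests on the shared animal.

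The members and gene lists were chosen with earlier results of these data known. The genes named with values are the called members, the 3 most abundant, those below the filter, paralogs, members with known roles beyond the ribosome, up to 4 called genes per list and the 5 genes most like the sum. Ratios within a mouse use CPM plus 0.5, and correlations log2(CPM + 0.5) after removing mouse means. Sequences come from RefSeq promoters of GRCm38.p6. Some genes are not reported here by name.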

Additional observations from a re-analysis of the deposited data

Results flagged for a closer look

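A single library stood far from the rest of its group, by Dixon's test, in 30 of 164 groups of libraries of members. All groups come from the same 11 libraries, so 1 unusual library can flag many members at once. The count is therefore not set against the rate of about 1 in 20 for separate groups. Among tumors the library was the m335 ADC tumor in all 23 cases, or 28.4% of the 81 members tested, compared with 8.30% of all genes.

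For large subunit members the levels in that tumor were 987 CPM for Rpl17, 1239 CPM for Rpl19, 357 CPM for Rpl24, 423 CPM for Rpl27, 654 CPM for Rpl27a, 1553 CPM for Rpl32, 97.2 CPM for Rpl32l and 31.7 CPM for Rpl34. Further ones were 930.0 CPM for Rpl35, 583 CPM for Rpl35a, 394 CPM for Rpl36, 704 CPM for Rpl37a, 359 CPM for Rpl38, 619 CPM for Rpl39, 1969.6 CPM for Rpl41 and 1029 CPM for Rpl6. The next highest tumor had 1021 CPM of Rpl41, 885 CPM of Rpl32 and 592 CPM of Rpl6. For small subunit members they were 958 CPM for Rps10, 803 CPM for Rps20, 484 CPM for Rps25, 590.0 CPM for Rps26, 622 CPM for Rps27a, 261 CPM for Rps28 and 402 CPM for Rps29, and the next tumor had 474 CPM of Rps10 and 342 CPM of Rps20. The T cell and thymus, proliferation and alveolar type 2 lists, the class II gene Cd74 and genes with short transcripts also set that tumor apart. Their part in these levels was not tested.

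Among normal lungs, that of mouse m335 stood above the others for 6.17% of the members tested, beside 5.30% of all genes. Its levels were 1046 CPM for Rpl12, 269 CPM for Rpl31 and 1558 CPM for Rps15, among others. The next normal lung had 386 CPM of Rpl12. That library also held the skeletal muscle transcripts, whose part was not tested. The m350 normal lung stood apart for Rpl13, at 364 CPM with the next at 521 CPM, and for Rpl23, at 229 CPM with the next at 158 CPM.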

How the results depend on the processing

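Of 143 alternatives for the main results, 102 kept their value or stayed within 1.5 times the main count. In tumors against normal lungs the count of called members was 6, and it was 2 (2.47%) on library totals, 3 (3.61%) without the filter on low counts and 18 (22.2%) with DESeq2, where 13.7%, 7.58% and 21.7% of all genes were called. By direction, DESeq2 called 17 members higher and 1 lower, beside 1287 genes higher and 1999 lower of 15175. Leaving out libraries or mice gave 0 to 15 (all genes 5.99% to 22.4%). In ADN against normal lungs it was 0, 5 with DESeq2 (all genes 19.3%), and 0 to 1 with libraries left out (all genes 0% to 13.1%). The 1 was Rpl36al without the m335 ADC tumor. In ADC against normal lungs it was 4, 2 on library totals (all genes 6.08%), 2 without the filter (all genes 3.51%) and 22 (27.2%, all genes 12.2%) with DESeq2. With libraries left out it was 0 to 2 (all genes 0.425% to 7.06%). ADC against ADN gave 0 members in each of these. Without the mouse as a replicate block the counts were 11, 3 and 24 in tumors, ADN and ADC against normal lungs, and the block changed the direction of Rps27, which was 0.17 without it. The log2 ratio of the summed members to the own normal lung became 0.032 in the m368 ADN tumor and 0.084 in the m372 ADC tumor on library totals. That scaling lowered the number of members above 0 in tumors from 74 to 62, and of the named members it turned Rpl8 to -0.15, Rps15 to -0.0094 and Rpl11 to -0.14. With libraries or mice left out, Rps14 ranged over -0.046 to 0.42, Rpl8 over -0.083 to 0.30, Rpl3l over -1.35 to 0.072 and Rps27 over -0.47 to 0.25. Rps14, Rpl8, Rps15, Rpl3l, Rps27 and Rpl11 are the named members whose direction turned, and none of them was called in that comparison. Called members kept their direction, but Rpl36al passed in 16 of 23 alternatives, Rpl10 in 13 of 24, Rpl4, Rpl21 and Rps4l in 11 each and Rpl3 in 9 of 24. Apart from fewer libraries or genes tested where these were left out, the cause was not tested. Depth limits Rpl3l, which had 4 to 86 counts a library.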
